A study of Mus musculus with 12 samples.

Results

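The effect of losing miR-146a was measured in sorted adipose tissue macrophages (ATMs) from mice on both diets together, by comparing 6 miR-146a-/- libraries with 6 WT libraries while diet was kept as a blocking factor. All 12 libraries of the study entered the comparison, and 34 of 12119 genes tested changed with genotype. The libraries fall into 4 groups of 3, which were miR-146a-/- and WT mice on a normal chow diet (NCD), and miR-146a-/- and WT mice on a high fat diet (HFD). Mice of both genotypes were on a C57BL/6 background, were placed on their diet at 6 weeks of age and were killed 14 weeks later, at 20 weeks of age. The deletion was carried by the whole animal and not by macrophages alone, and although the study used both sexes and mainly shows female cohorts, the sex of the mice behind these libraries was not stated for them. Cells of the stromal vascular fraction were pooled from 3 mice before sorting for live CD45+ CD11b+ F4/80+ cells, so each library is 1 pool and the spread between libraries is a spread between pools. Between 9998868 and 11559282 reads were counted to genes in each library.

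miR-146a is a small RNA that NF-κB switches on after signals from Toll-like receptors and the IL-1 receptor. It pairs with the 3′ untranslated regions (UTRs) of the adaptor Traf6 and the kinase Irak1, which carry those signals, and so forms a brake on the pathway that induced it. ATMs are the most abundant immune cells of fat and are a main source of inflammatory cytokines in obese adipose tissue. The mature strand is shown here with its seed, bases 2 to 8, in capitals, beside miR-146b-5p, which is encoded at another locus. These were the only mouse miRNAs in the RefSeq set (GRCm38.p6) with this seed.
miR-146a-5p: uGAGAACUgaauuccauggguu
miR-146b-5p: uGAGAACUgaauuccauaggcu

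The miR-146a hairpin lies on the minus strand of chromosome 11 at chr11:43374397-43374461 (GRCm38, the build of the files). No transcript of this locus was among the genes analysed here, so the deletion itself could not be checked in the libraries. The best known targets could be read. Traf6 carries 4 full seed matches in its 3′ UTR and Irak1 carries 2, printed here with the letters that pair with the seed in capitals, each followed by the A that completes an 8mer (AGTTCTCA). Irak2, another kinase of the same complex, carries 1 8mer and 1 match that lacks this A (7mer-m8, AGTTCTC). Each window is 22 bases of the 3′ UTR, and the strand is that of the gene.
Traf6, chr2:101697946-101697967, plus: cgctctggtgttgAGTTCTCat
Traf6, chr2:101698010-101698031, plus: cctggaaggcttaAGTTCTCaa
Traf6, chr2:101698822-101698843, plus: tactttggagtctAGTTCTCag
Traf6, chr2:101701346-101701367, plus: actttgctactgcAGTTCTCaa
Irak1, chrX:74015392-74015413, minus: actcagaggtcaaAGTTCTCat
Irak1, chrX:74015376-74015397, minus: tctcatgcttggaAGTTCTCat
Irak2, chr6:113694253-113694274, plus: cggtgtctccgcaAGTTCTCaa

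None of these targets changed at the threshold. Traf6 had 7.16 to 8.94 FPKM (median 7.6) in miR-146a-/- libraries and 5.94 to 7.35 FPKM (median 6.47) in WT libraries, and its log2 fold change was 0.24 ± 0.07 (unadjusted p = 0.0048, adjusted p = 0.29; errors of fold changes are standard errors throughout). FPKM, the fragments of a gene scaled for its length and for the size of the library, is a level per length, and fold changes are miR-146a-/- over WT on the scale of log2(FPKM + 1), which shrinks the change of genes near 1 FPKM. Adjusted p-values here and below come from limma and were adjusted by the Benjamini-Hochberg method over all genes tested, with a threshold of 0.05. On HFD Traf6 was at 7.51, 8.94 and 8.75 FPKM in miR-146a-/- and 6.29, 5.94 and 6.66 FPKM in WT libraries, which did not overlap. Its log2 fold change was 0.36 on HFD (adjusted p = 0.089) and 0.12 on NCD (0.90), and the difference between diets did not pass (0.45). Irak1 was at 17.7 ± 1.73 FPKM in miR-146a-/- and 15.7 ± 2.14 FPKM in WT libraries (SD, n = 6), a log2 fold change of 0.17 (adjusted p = 0.38), and Irak2 was at 12.7 FPKM and 11.8 FPKM (log2 fold change 0.10, adjusted p = 0.66). Of a list of 15 target genes of miR-146a, 0 passed the test and 12 had a log2 fold change above 0, with a median of 0.12, beside 49.7% above 0 and a median of -0.001 over all genes tested. The median was -0.04 on NCD and 0.17 on HFD.

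Genes with and without a seed match in the 3′ UTR had nearly the same median. An 8mer or 7mer-m8 match was found in 1294 of 10657 genes with an annotated 3′ UTR (12.1%), and their median log2 fold change was 0.001, beside -0.001 for the 9363 genes without a match. Their 3′ UTRs were longer, with a median of 2656.5 bases beside 963 bases. The genes with an 8mer, 483 in all, had a median of 0.003 and 0 of them passed the test. Of the 13 changed genes that were higher in miR-146a-/- libraries and have a 3′ UTR, 0 hold a match, and of the 17 lower ones 2 do, Rapgef6 and Slc36a1, with 1 7mer-m8 each. The count of higher genes with a match was 4 without miR-146a-/- HFD replicate 1, when 64 genes were higher, and 3 with array quality weights, when 45 were. A match describes letters in a window and not a site in use.

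The genes that changed between miR-146a-/- and WT libraries included granule genes of neutrophils and the cytokines Il10 and Il4. They also included genes of a stretch of chromosome 11 on the side of the miR-146a locus away from the centromere. Of the 12119 genes tested, 34 changed (0.281%), 14 higher in miR-146a-/- (0.116%) and 20 lower (0.165%), and 1190 had an unadjusted p under 0.05. All 34 had the same sign on NCD and on HFD, as did 49.3% of all genes tested. In 33 of the 34 the 3 miR-146a-/- libraries lay apart from the 3 WT libraries on each diet and on the same side, 13 higher and 20 lower. Over all genes tested such separation was seen in 278 (2.29%), higher in 164 (1.35%) and lower in 114 (0.941%). The exception was Igkv8-24, an immunoglobulin kappa variable segment. Its libraries overlapped on HFD, with 1.22, 7.82 and 11.3 FPKM in miR-146a-/- and 0.241, 0.721 and 1.37 FPKM in WT. Sign and separation were read from the same libraries that gave the calls. They therefore describe the 34 genes and are no separate support for them.

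**Figure D1:**
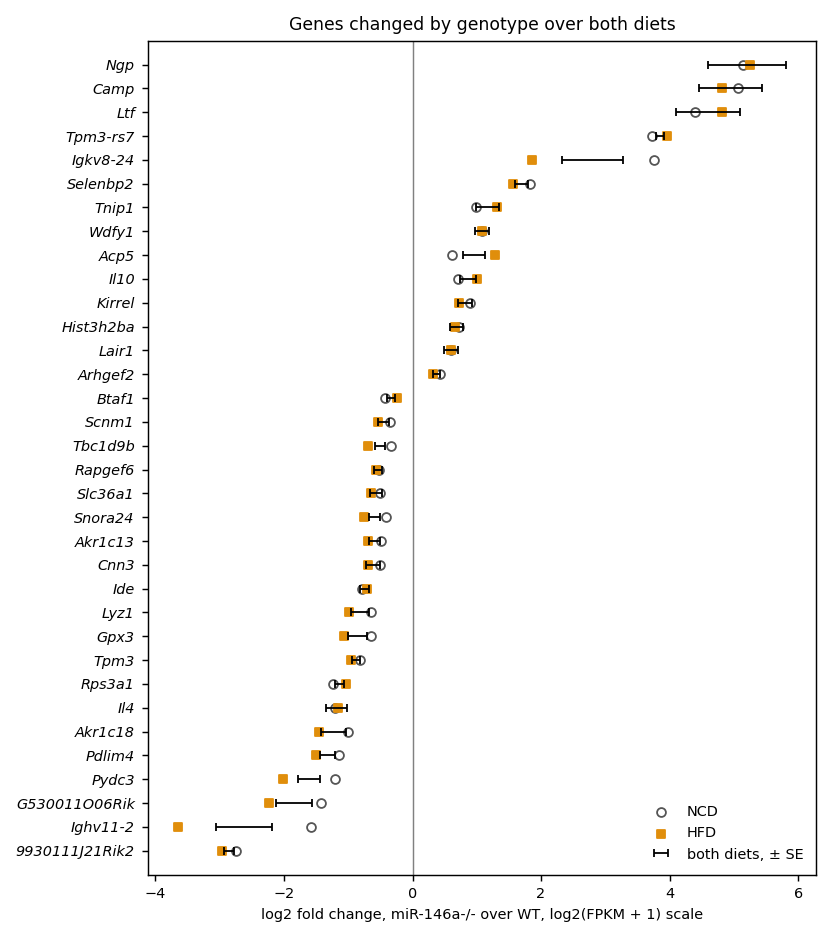
Log2 fold change of miR-146a-/- over WT (x axis, log2(FPKM + 1) scale) for each of the 34 genes that changed over both diets (y axis). Open circles show NCD, filled squares HFD, and the black bar spans 1 standard error on each side of the estimate over both diets; in every gene the circle and the square lie on the same side of 0, and Igkv8-24 and Ighv11-2 show the widest gaps between diets.

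The size of the change ranged from 0.34 to 5.20 on the log2 scale, with a median of 0.92, and 18 of the genes changed by less than 1. The change was larger on HFD than on NCD in 23 of the 34. Tested on each diet alone, 21 of them passed on HFD, 11 passed on NCD, 10 passed on both and 12 on neither. A change past the threshold on 1 diet only was not shown to differ between diets, since the test of the difference passed for 0 of the genes tested with limma (smallest adjusted p = 0.159), with 1481 at an unadjusted p under 0.05. Among the 34, 5 had an unadjusted p under 0.05 for that difference, Pydc3, Tbc1d9b, Ighv11-2, Igkv8-24 and Acp5, with an adjusted p of at least 0.25. The values nearest to the threshold were those of Lair1 (adjusted p = 0.0465) and Scnm1 (0.0486) inside it and Hpgd (0.0531), Galnt6 (0.0557) and Rab34 (0.0562) outside it.

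miR-146a-/- HFD replicate 1 stood apart from the other libraries. Its median rank correlation with the others was 0.912, while for the other libraries it was 0.944 to 0.96. Without it, 100 genes changed, 64 higher and 36 lower, of which 33 were among the 34. The gene lost was Ighv11-2 (adjusted p = 0.05). When each of the 12 libraries was left out in turn, 16 of the 34 passed every time and 18 failed at least once, with adjusted p-values of up to 0.14. The 16 were 9930111J21Rik2, Camp, Ide, Il10, Il4, Kirrel, Ltf, Ngp, Pdlim4, Pydc3, Rapgef6, Rps3a1, Selenbp2, Tpm3, Tpm3-rs7 and Wdfy1.

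Granule proteins of neutrophils showed the largest differences. Camp encodes the antimicrobial peptide cathelicidin, Ltf lactoferrin and Ngp a neutrophil granule protein, all made while neutrophils mature. These 3 genes lie close together on chromosome 9. In a stretch around them, chosen after the values were seen, 31 genes were tested and only these 3 changed (9.68%). Whether their changes are independent of each other was not tested. Camp was at 54.2, 18.5 and 33.8 FPKM in miR-146a-/- NCD and 119, 11.5 and 14.1 FPKM in miR-146a-/- HFD libraries, while 0 reads were counted in the WT libraries. Camp had 1654 reads over the miR-146a-/- libraries, and with a floor of 3 reads over the WT group its miR-146a-/- mean was 541-fold the floor. That mean was raised by miR-146a-/- HFD replicate 1, which held 803 of the 1654 reads. The lowest miR-146a-/- library was above that floor, 0.0774 FPKM, on both diets. Ltf had 7214 reads in miR-146a-/- and 29 in WT libraries, and Ngp 5362 and 3. Ngp was at 68.9, 18.9 and 35.7 FPKM in miR-146a-/- NCD and 248, 13.3 and 15.7 FPKM in miR-146a-/- HFD libraries, against at most 0.157 FPKM in WT libraries. The fitted log2 fold changes were 5.20 ± 0.61 for Ngp, 4.94 ± 0.49 for Camp and 4.60 ± 0.50 for Ltf (adjusted p = 0.0035, 0.0009 and 0.0017). In limma voom on the recovered reads none of these 3 passed, with adjusted p-values of 0.59, 0.43 and 0.44. The differences between diets in these effects were small beside their errors, with -0.24 ± 1.02 for Camp and 0.11 ± 1.30 for Ngp.

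The other neutrophil markers tested also had log2 fold changes above 0, though not all by much. Of 12 tested, those 3 included, 12 had a log2 fold change above 0 with a median of 2.98, 3 passed the test and 9 were separated on both diets. Not separated were Cxcr2 (log2 fold change 1.26, adjusted p = 0.57), Csf3r (0.54, 0.61) and Mmp9 (0.07, 0.87), and Mmp9 was at -0.18 on HFD. S100a9, a subunit of calprotectin and the most abundant of them, was at 762, 270 and 390 FPKM in miR-146a-/- NCD libraries, against 57, 69.4 and 59.8 FPKM in WT NCD libraries. On HFD it was at 9191, 252 and 243 FPKM in miR-146a-/- and 28.1, 25 and 25.7 FPKM in WT libraries. The groups did not overlap on either diet, while replicate 1 on HFD exceeded the other miR-146a-/- libraries many times over, and with all libraries S100a9 had an adjusted p of 0.12. Without that library, 8 of the 12 markers were higher and 0 lower, among them S100a9 (log2 fold change 2.96, adjusted p = 1.7e-04), S100a8, the other calprotectin subunit (2.84, 7.6e-04), and the siderophore-binding protein Lcn2 (2.34, 7.0e-04). The summed FPKM of the list was 718 to 1770 in miR-146a-/- NCD and 207 to 259 in WT NCD libraries, and 609 to 19600 in miR-146a-/- HFD and 143 to 192 in WT HFD libraries. Camp and Elane, the neutrophil elastase, were at 0 in all WT libraries.

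In bulk libraries a larger number of cells of a type and more RNA per cell cannot be told apart. The markers of macrophages, which include Lyz2 and the complement subunits C1qa and C1qb, were at a summed 13200 to 14900 FPKM in miR-146a-/- NCD and 13900 to 14400 FPKM in WT NCD libraries, and at 13300 to 14700 FPKM in miR-146a-/- HFD and 14400 to 15500 FPKM in WT HFD libraries. Of 11 macrophage markers tested 0 changed, and their median log2 fold change was -0.06. Macrophage markers were thus high in every library, which does not show how pure the sorted cells were. The list held 12 such markers, and the gene of the last sorting marker was not among the 11 tested. In miR-146a-/- HFD replicate 1 the neutrophil markers summed to 19600 FPKM, above the 13300 FPKM of the macrophage markers. In the other libraries the neutrophil sum was below the macrophage sum. Of 10 monocyte markers 0 passed the test and 8 were above 0, with a median of 0.97. Haptoglobin (Hp), which neutrophils also make, was at 70.2, 26.6 and 25.4 FPKM in miR-146a-/- NCD libraries, against 8.73, 11.8 and 9.86 FPKM in WT NCD libraries, and at 571, 25.3 and 20.5 FPKM in miR-146a-/- HFD libraries, against 3.60, 5.75 and 4.84 FPKM in WT HFD libraries (adjusted p = 0.29). Without miR-146a-/- HFD replicate 1, 3 of the 10 passed, Hp, Plac8 and Chil3, all higher. Ccr2, the chemokine receptor that brings monocytes into tissue, had a log2 fold change of -0.15 (adjusted p = 0.69).

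**Figure D2:**
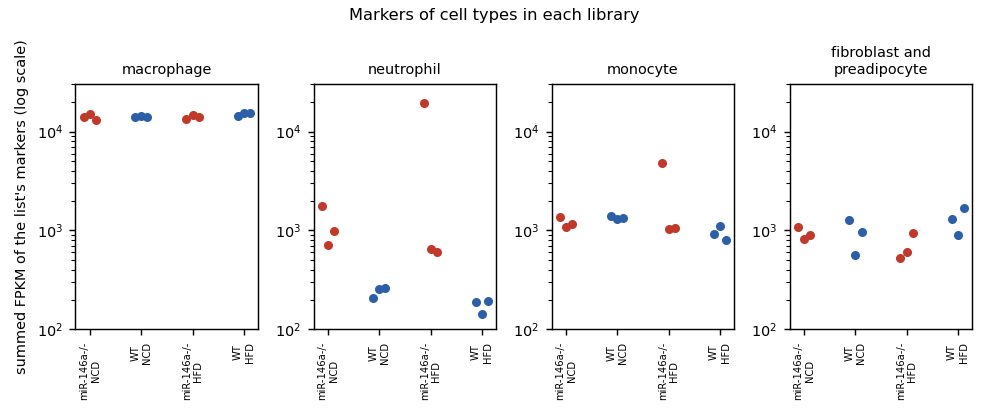
Summed FPKM of the markers of macrophages, neutrophils, monocytes, and fibroblasts and preadipocytes (y axis, log scale) in each library (points, red for miR-146a-/- and blue for WT, 3 libraries in each group on the x axis). The macrophage sums lie between 13200 and 15500 in all libraries, the neutrophil sums of miR-146a-/- libraries all lie above those of WT libraries, and 1 miR-146a-/- HFD library reaches 19600.

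Among the remaining marker lists no gene passed the test with all libraries. The median log2 fold change was -0.41 for fibroblasts and preadipocytes, with 3 of 14 above 0, and -0.43 for mast cells, with 1 of 8 above 0. It was 0.45 for T cells, with 9 of 9 above 0, 1.27 for erythroid cells and platelets, with 6 of 7 above 0, and 0.10 for B cells and plasma cells, with 3 of 6 above 0. Medians were -0.24 for dendritic cells, -0.19 for eosinophils, 0.11 for NK cells, 0.12 for adipocytes, 0.39 for mesothelial and 0.45 for endothelial cells. Hbb-bs, a beta globin of red cells, was at 14.1 to 174 FPKM in miR-146a-/- and 2.76 to 30.0 FPKM in WT libraries, which overlapped across diets but not within either. Without miR-146a-/- HFD replicate 1, Pecam1 of endothelial cells was higher (log2 fold change 1.01, adjusted p = 0.012), and Ear2 of eosinophils and Cd209a of dendritic cells were lower (-0.50 and -0.64, adjusted p = 0.013 for each). Leaving it out moved the median to 0.73 for T cells, 0.35 for NK cells, 0.26 for B cells and plasma cells, -0.27 for fibroblasts and preadipocytes, -0.09 for dendritic cells and 0 for eosinophils. The part of these other cells in the changes of single genes was not tested.

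Among genes of the immune response, Il10 was higher and Il4 lower in miR-146a-/- libraries. Il10, an anti-inflammatory cytokine of macrophages, was at 53.3, 58.5 and 44.7 FPKM in miR-146a-/- NCD libraries, against 33.4, 29.0 and 31.4 FPKM in WT NCD libraries. On HFD it was at 61.1, 86.3 and 102 FPKM in miR-146a-/- and 42.1, 39.0 and 39.2 FPKM in WT libraries. Every miR-146a-/- library was above every WT library, with a log2 fold change of 0.86 ± 0.12 (adjusted p = 0.0087) that was 0.71 on NCD and 1.00 on HFD. Without diet in the model Il10 did not pass (adjusted p = 0.12), and it passed when any single library was left out. Il4, the cytokine of type 2 immunity, was scarce, with 26 reads over the miR-146a-/- libraries and 160 over the WT libraries. It was at 0 to 0.662 FPKM in miR-146a-/- and 1.22 to 2.88 FPKM in WT libraries, a log2 fold change of -1.18 ± 0.16 (adjusted p = 0.0076), and did not pass in limma voom on the recovered reads (adjusted p = 0.051).

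Tnip1 and Acp5 were also higher. Tnip1 (ABIN1), which binds the ubiquitin-editing enzyme A20 and restrains NF-κB, was at 18.6, 14.8 and 14.4 FPKM in miR-146a-/- NCD libraries, against 7.62, 7.18 and 7.64 FPKM in WT NCD libraries, and at 29.4, 13.7 and 12.8 FPKM in miR-146a-/- HFD libraries, against 6.5, 5.16 and 7.52 FPKM in WT HFD libraries. The genotypes did not overlap, and the log2 fold change was 1.16 ± 0.18 (adjusted p = 0.024). Acp5, the tartrate-resistant acid phosphatase of osteoclasts and lipid-laden macrophages, was at 7.24 to 20.2 FPKM (median 11.8) in miR-146a-/- and 4.74 to 6.20 FPKM (median 5.49) in WT libraries, with a log2 fold change of 0.95 ± 0.17 (adjusted p = 0.04). Lair1, an inhibitory receptor for collagen, was at 31.6 to 63.4 FPKM in miR-146a-/- and 21.6 to 33.3 FPKM in WT libraries (log2 fold change 0.60, adjusted p = 0.047). Its genotypes were separated within each diet but overlapped across diets. Leaving out 1 library ended the call for Tnip1 in 7 of 12 fits (adjusted p up to 0.084, without WT HFD replicate 1), for Acp5 in 10 (up to 0.12, without miR-146a-/- NCD replicate 1) and for Lair1 in 11 (up to 0.14, without miR-146a-/- NCD replicate 1).

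**Figure D3:**
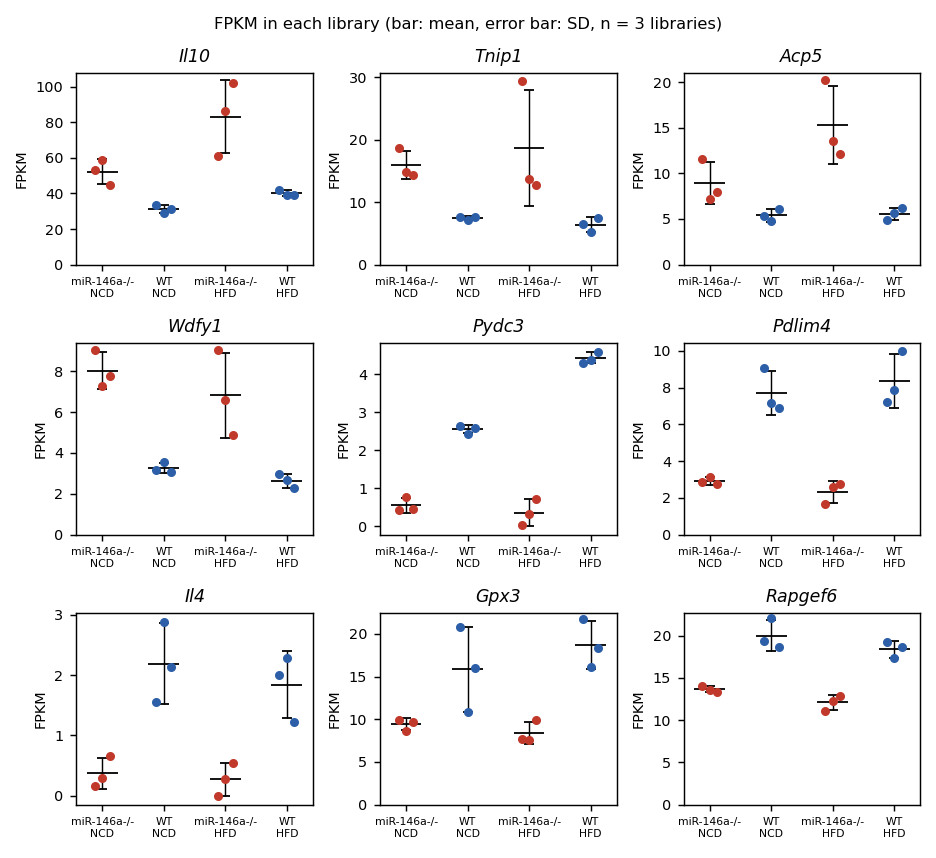
FPKM (y axis) of 9 changed genes in each library (points, red for miR-146a-/- and blue for WT), with the mean and SD of the 3 libraries in each group. Il10, Tnip1, Acp5 and Wdfy1 are higher in miR-146a-/- libraries on each diet and Pydc3, Pdlim4, Il4, Gpx3 and Rapgef6 lower, and Tnip1 reaches 29.4 FPKM in 1 miR-146a-/- HFD library.

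No other gene in the lists that hold Tnip1 and Il10 for signalling and for cytokines passed the test. Of 39 genes of Toll-like receptor and IL-1 receptor signalling and NF-κB feedback, Tnip1 was higher, 0 were lower and 38 did not pass, with 28 above 0 and a median of 0.12 (0.01 on NCD and 0.27 on HFD). Single genes of these lists are given as examples chosen after their values were seen. Tab2, an adaptor of the kinase TAK1, had a log2 fold change of 0.19 (adjusted p = 0.29), Nfkb1 0.22 (0.36) and Myd88, the adaptor shared by most Toll-like receptors, 0.03 (0.93). Of 31 cytokines and chemokines Il10 alone passed, with 24 above 0 and a median of 0.23. Tnf had a log2 fold change of 0.30 (adjusted p = 0.67), Il1b 0.40 (0.63, with -0.32 on NCD and 1.12 on HFD) and Il6 -0.28 (0.56). The neutrophil attractant Cxcl1 had 1.14 (adjusted p = 0.29), and passed without miR-146a-/- HFD replicate 1. Leaving out that library moved the median of the cytokine list to 0.36, that of the receptor list to 0.08 and that of the target genes to 0.04, and Tlr1, a receptor for bacterial lipoproteins, then passed as higher.

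Lists of macrophage states had few changed members. Of 37 genes of resident macrophages, Il10 was higher, 0 were lower and 36 did not pass, with 10 above 0 and a median of -0.26, which was 0.06 on NCD and -0.49 on HFD. The C-type lectins Cd209b and Cd209a had log2 fold changes of -1.08 and -0.82 (adjusted p = 0.086 and 0.13) and both passed without miR-146a-/- HFD replicate 1, when the median of the list was -0.08. Of 31 genes of lipid-associated macrophages Acp5 was higher and 30 did not pass, with 24 above 0 and a median of 0.13. Fabp4, a fatty acid-binding protein of macrophages and adipocytes, was at 119 to 224 FPKM in miR-146a-/- and 62.4 to 115 FPKM in WT libraries, which did not overlap (log2 fold change 0.79, adjusted p = 0.13). Of the MHC class I presentation genes 21 of 22 were above 0 with a median of 0.15, and 0 passed.

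With all libraries the remaining lists held no gene that changed, apart from the PYHIN family and the genes that vary between C57BL/6 stocks. Medians on both diets together were between -0.13 and 0.17. The 44 interferon-stimulated genes had a median of -0.07, which was 0.26 on NCD and -0.35 on HFD, and 2 of them had the same sign on both diets. NRF2 target and antioxidant genes had a median of 0.17 with 27 of 34 above 0, and Srxn1, which restores oxidised peroxiredoxins, had a log2 fold change of 0.49 (adjusted p = 0.20). Complement genes had a median of -0.05, lysosomal hydrolases and proton pump genes -0.02 and PI3K, AKT and mTOR genes 0.01. Without miR-146a-/- HFD replicate 1 the median was 0.05 for interferon-stimulated genes and 0.06 for complement genes, both of the opposite sign, and 0.09 for NRF2 target genes, of which Gsr, the glutathione reductase, then passed as higher (log2 fold change 0.70, adjusted p = 0.046).

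**Figure D4:**
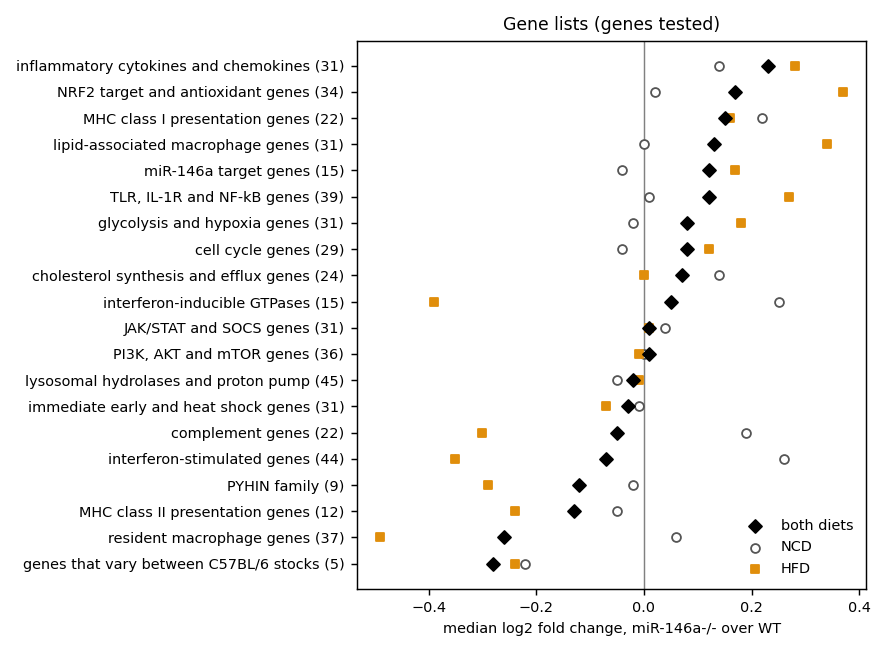
Median log2 fold change of miR-146a-/- over WT (x axis) over the tested genes of each list (y axis, number tested in brackets). Diamonds show both diets together, open circles NCD and squares HFD; interferon-stimulated genes lie at 0.26 on NCD and -0.35 on HFD, and the medians over both diets lie between -0.28 and 0.23.

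In the PYHIN family, whose proteins sense DNA and are induced by interferon, Pydc3 was lower and the other 8 genes tested did not pass. Pydc3 was at 0.425, 0.781 and 0.447 FPKM in miR-146a-/- NCD libraries, against 2.65, 2.44 and 2.59 FPKM in WT NCD libraries, and at 0.0339, 0.329 and 0.732 FPKM in miR-146a-/- HFD libraries, against 4.31, 4.39 and 4.59 FPKM in WT HFD libraries. No miR-146a-/- library came near the WT range, and the log2 fold change was -1.61 ± 0.17 (adjusted p = 0.0009). Its neighbours in the family lay between -0.24 for Pyhin1 and 0.09 for Ifi204. Of the 50-base windows of Pydc3 transcripts, 20.8% also occur in other genes, with the most matches in Ifi213, so reads could be split between these genes.

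Genes near the miR-146a locus were among those lower in miR-146a-/- libraries. Of the 34 changed genes, 9 (26.5%) lay on chromosome 11 within 20 Mb of the locus, where 248 of the genes tested lie (2.05%), and 0 of the 788 tested genes on the rest of the chromosome changed. Of the 248, 3.63% changed, beside 0.281% of all genes tested. The share was 0.15% in the 11326 genes outside this window and chromosome 3, a background without the 8 changed genes of chromosome 3. Of the 9, 7 were lower and 2 higher, and all lay on the distal side of the locus. Pdlim4, a PDZ and LIM domain protein of the actin cytoskeleton, lies 10.68 Mb from the locus (chr11:54054928-54069014) and was at 1.64 to 3.14 FPKM (median 2.75) in miR-146a-/- and 6.88 to 10 FPKM (median 7.54) in WT libraries, a log2 fold change of -1.32 ± 0.12 (adjusted p = 0.00029). Rapgef6, an exchange factor for Rap GTPases 11.15 Mb away, was at 11.1 to 14.0 FPKM in miR-146a-/- and 17.3 to 22.1 FPKM in WT libraries (log2 fold change -0.54 ± 0.06, adjusted p = 0.00092). In both genes the genotypes were well apart on each diet.

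Il4 lies in the same stretch, 10.23 Mb from the locus, and Tnip1 11.54 Mb from it. Gpx3, which encodes the secreted glutathione peroxidase, is the neighbour of Tnip1 (11.53 Mb) and moved the other way. It was at 7.54 to 9.90 FPKM in miR-146a-/- and 10.8 to 21.7 FPKM in WT libraries, a log2 fold change of -0.86 ± 0.15 (adjusted p = 0.038). Slc36a1, a lysosomal amino acid transporter 11.83 Mb away, was lower by 0.57 on the log2 scale (log2 fold change -0.57, adjusted p = 0.022), and so was Tbc1d9b, a TBC domain protein (log2 fold change -0.51, adjusted p = 0.02). Hist3h2ba, a histone H2B gene 15.57 Mb away, was at 6.82 to 14.5 FPKM in miR-146a-/- and 3.81 to 8.76 FPKM in WT libraries and was higher (log2 fold change 0.69, adjusted p = 0.014). When 1 library was left out, Gpx3 lost its call in 10 of 12 fits (adjusted p up to 0.1, without WT HFD replicate 1), Slc36a1 in 7, Tbc1d9b in 6 and Hist3h2ba in 3.

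**Figure D5:**
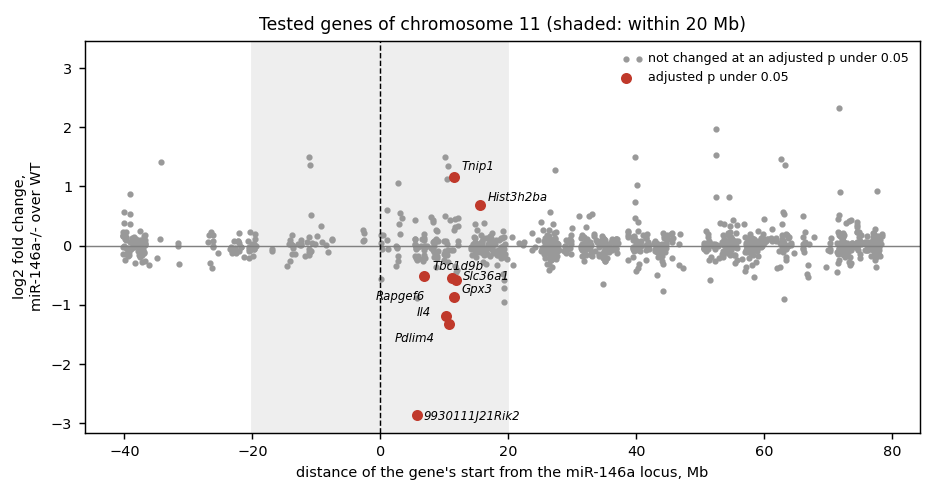
Log2 fold change of miR-146a-/- over WT (y axis) of all 1036 genes tested on chromosome 11 by the distance of their start from the miR-146a locus in Mb (x axis, dashed line at the locus, shading within 20 Mb). Red points are the 9 genes that changed, all on the distal side of the locus and 7 of them below 0; grey points are the other genes.

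The gene of this stretch with the largest difference was 9930111J21Rik2, at 0.0254 to 0.178 FPKM in miR-146a-/- and 5.61 to 7.94 FPKM in WT libraries, or 42 and 3147 reads (log2 fold change -2.86, adjusted p = 1.7e-09). It shares 59.2% of its 50-base windows with other genes, with the most matches in its neighbour 9930111J21Rik1. The reads of the pair together were 28.3 ± 4.74 RPM (reads scaled to library total) in miR-146a-/- and 76.2 ± 7.64 RPM in WT libraries (SD, n = 6), a log2 ratio of -1.43, so the difference remained when they were summed.

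Chromosome 3 held 8 of the changed genes, 3 higher and 5 lower, out of 545 tested (1.47%), and 6 of the 8 lay between 86 and 96 Mb, a window chosen after the values were seen, where 145 genes were tested. Without 1 library the count on chromosome 3 was 4 to 13, the highest without miR-146a-/- HFD replicate 1 and the lowest without miR-146a-/- NCD replicate 1, WT NCD replicate 3, miR-146a-/- HFD replicate 2 or WT HFD replicate 2. It was 13 with array quality weights and 5 with a minimum of 5 FPKM, no diet block, the replicate block or voom. Several of these genes have near copies. Tpm3, tropomyosin 3, was at 19.8 to 23.3 FPKM in miR-146a-/- and 35.8 to 45.6 FPKM in WT libraries (log2 fold change -0.88, adjusted p = 3.7e-05). Tpm3-rs7, a related sequence on chromosome 14, was at 54.6 to 65.7 FPKM in miR-146a-/- and 2.71 to 4.08 FPKM in WT libraries (log2 fold change 3.85, adjusted p = 5.7e-12). Neither gene's genotypes overlapped, and the directions were opposite. Tpm3-rs7 shares 69.4% of its windows with other genes, with the most matches in Tpm3. The reads of the pair summed to 256 ± 12.9 RPM in miR-146a-/- and 253 ± 23.5 RPM in WT libraries, a log2 ratio of 0.02. These sums overlapped between the genotypes.

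Selenbp2, a selenium-binding protein, also has a close copy. It had 367 reads over the miR-146a-/- libraries and 10 over the WT libraries (log2 fold change 1.69, adjusted p = 4.3e-06), and 43.9% of its windows occur elsewhere, with the most matches in Selenbp1. Together the pair had 65.4 ± 14.4 RPM in miR-146a-/- and 76.1 ± 13.2 RPM in WT libraries, which overlapped. Selenbp2 was a small part of this sum, so the sum cannot show whether its difference remains. Rps3a1, a protein of the small ribosomal subunit, was at 34.5 to 44.7 FPKM in miR-146a-/- and 79.5 to 107 FPKM in WT libraries (log2 fold change -1.13, adjusted p = 4.3e-06), with 71.0% of its windows in other genes such as Rps3a2. Kirrel, an adhesion protein related to nephrin, has none of its windows elsewhere and was at 1.60 to 2.31 FPKM in miR-146a-/- and 0.512 to 1.05 FPKM in WT libraries (log2 fold change 0.81, adjusted p = 0.007). Arhgef2 had a log2 fold change of 0.37 (adjusted p = 0.015). Cnn3, an actin-binding calponin, and Snora24, a small nucleolar RNA whose sequence lies wholly in its host Snhg8, were lower by -0.61 and -0.59 (adjusted p = 0.04 and 0.024), as was Scnm1, a splicing factor named after its values were seen (-0.45, 0.049). Leaving out 1 library ended the call for Arhgef2 in 4 of 12 fits, for Snora24 in 8 and for Cnn3 and Scnm1 in 10 each. Over all 34 genes, 13 share more than 10% of their windows with another gene and 16 share none.

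A list of genes known to vary between stocks of C57BL/6 mice was also measured. Of its 9 genes 5 were tested, and Wdfy1 was higher and Ide and Btaf1 lower. All 5 were separated by genotype on both diets, beside 2.29% of all genes tested. The list was chosen with earlier results of these data known, so this comparison is not a test. Wdfy1, an endosomal protein, was at 4.88 to 9.03 FPKM in miR-146a-/- and 2.27 to 3.53 FPKM in WT libraries (log2 fold change 1.08 ± 0.11, adjusted p = 0.00092), with 1.08 on each diet. Ide, the insulin-degrading enzyme, was at 9.43 to 12.3 FPKM in miR-146a-/- and 15.8 to 21.1 FPKM in WT libraries (log2 fold change -0.74 ± 0.07, adjusted p = 0.00051). Its neighbour on chromosome 19, Btaf1, which removes the TATA-binding protein from DNA, had a log2 fold change of -0.34 (adjusted p = 0.04), and failed in 11 of 12 fits without 1 library. The others, Nnt, the mitochondrial transhydrogenase, and Cyfip2, a regulator of actin, had log2 fold changes of -0.28 and 1.06 (adjusted p = 0.16 and 0.31). For Cyfip2 it was 0.60 on NCD and 1.52 on HFD. In miR-146a-/- HFD replicate 1 Cyfip2 was at 14.9 FPKM, and in the nearest other miR-146a-/- library at 6.3 FPKM. Whether the WT and miR-146a-/- mice differed in stock was not tested.

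The last changed genes lay outside the chromosome regions described above. Lyz1, a lysozyme beside the macrophage gene Lyz2, was at 234 to 777 FPKM in miR-146a-/- and 538 to 1184 FPKM in WT libraries, with genotypes apart on each diet (log2 fold change -0.82, adjusted p = 0.04), while Lyz2 was at 7328 and 7656 FPKM on average. Lyz1 failed in 11 of 12 fits without 1 library and with quantile normalization, no diet block or the replicate block (adjusted p up to 0.49). It shares 16.1% of its windows with other genes, with the most matches in Lyz2, and the summed reads of the pair had a log2 ratio of -0.12. Lyz2 made up most of this sum, so the sum cannot show whether the difference of Lyz1 remains. Of the steroid-converting aldo-keto reductases, Akr1c18 was at 0.319 to 4.41 FPKM in miR-146a-/- and 1.74 to 9.98 FPKM in WT libraries (log2 fold change -1.23, adjusted p = 0.031) and Akr1c13, in the same cluster on chromosome 13, at 9.11 to 14.8 FPKM and 16.6 to 21.2 FPKM (log2 fold change -0.59, adjusted p = 0.024). Ighv11-2, a heavy chain variable segment typical of B-1 cells, was at 25.6, 19.1 and 64.2 FPKM in miR-146a-/- NCD libraries, against 116, 64.7 and 121 FPKM in WT NCD libraries. On HFD it was at 0, 0.735 and 0 FPKM in miR-146a-/- and 13.4, 20.4 and 10.2 FPKM in WT libraries (log2 fold change -2.62, adjusted p = 0.038). It failed in 10 of 12 fits without 1 library and with a pseudocount of 0.1, no diet block, the replicate block, array quality weights or voom (adjusted p up to 0.58). The kappa segment Igkv8-24 was higher (log2 fold change 2.80, adjusted p = 0.038), while the constant genes Ighm and Igkc had log2 fold changes of -0.40 and -0.02 and did not pass. G530011O06Rik, an unnamed gene model given like Igkv8-24 after its values were seen, was at 4.12 to 8.76 FPKM in miR-146a-/- and 15.5 to 55.2 FPKM in WT libraries (log2 fold change -1.84, adjusted p = 0.024). Leaving out 1 library ended the call for G530011O06Rik in 6 of 12 fits, for Akr1c13 in 8, for Akr1c18 in 9 and for Igkv8-24 in 10.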

How the data were processed

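RNA of sorted ATMs was sequenced in 12 libraries. The deposited table gives FPKM of 15393 genes; the authors divided read counts by gene length and library total, and multiplying back gave whole reads (within 1e-06) for all 184716 values. Reads to genes per library had a median of 10843129.5. Novoalign, DESeq2 and the build mm10 appear in the submitters' processing notes, with no version; strand use in counting is not given in the sources used here.

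The values were analysed as log2(FPKM + 1) with limma 3.58.1 (trend and robust, statmod 1.5.0, R 4.3.3) in the 12119 genes whose mean over all libraries reached 1 FPKM, fitting diet and genotype, and with 4 group means for each diet and the interaction, at an adjusted p of 0.05. The script was tested on simulated data. Genes, 50-base windows and seed matches used GENCODE M21 transcripts. Named were, of the changed and separated genes other than unnamed models, up to 15 in each direction by size of change, up to 4 changed members of each list or else the 1 or 2 with the smallest p, targets, changed genes near the locus and up to 3 markers per cell type; any other gene was named after its values were seen. Members and lists were chosen with earlier results of these data known. Replicates are pools; p-values cover only the spread between them. Alternatives were other pseudocounts, filters, scalings and models, voom on recovered reads, and each library left out. Figures used Python 3.11.15 and matplotlib 3.10.9.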

Additional observations from a re-analysis of the deposited data

Results flagged for a closer look

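For 80 genes named here, the 6 libraries of each genotype were searched for a value whose gap to the nearest other value was large for the range of the group. Each group holds libraries of both diets, and many of the genes were chosen by their values, so no chance rate is set beside the count. Such a value was found in 20 of 158 groups, and 18 of the 20 were in miR-146a-/- HFD replicate 1. Its high values of neutrophil and monocyte markers, with that of the nearest miR-146a-/- library in brackets, were 9191 FPKM of S100a9 (762), 7389 of S100a8 (607), 2730 of Chil3 (64.1), 827 of S100a4 (614), 571 of Hp (70.2), 248 of Ngp (68.9), 187 of Lcn2 (12.8), 128 of Ltf (46.7) and 1.65 of Elane (0.105). Other genes high in this library were Gsr with 299 FPKM (41.6), Hbb-bs with 174 (64.3), Lair1 with 63.4 (42.7), Tnip1 with 29.4 (18.6), Pecam1 with 19 (8.25) and Cyfip2 with 14.9 (6.3). Genes low in it were Ccr2 with 153 FPKM (237), Cd209b with 38.1 (72.9) and Selenbp1 with 14.9 (25.4). The others were 224 FPKM of Fabp4 in miR-146a-/- NCD replicate 1 (138) and 55.2 FPKM of G530011O06Rik in WT HFD replicate 2, where the nearest WT library had 27.7. The causes were not tested.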

How the results depend on the processing

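With all 12 libraries there were 34 calls, 14 higher and 20 lower in miR-146a-/- libraries, with 33 of them separated, and other settings gave 24 to 50 calls, except array quality weights. Those weights gave 88 calls, 45 higher and 43 lower, 68 of them separated. With limma voom on recovered reads 9 genes were higher. The replicate block, a term for the replicate number beside diet, gave 13 lower genes and 25 calls in all; same-numbered libraries were not paired by the labels, and their deviations correlated at -0.05 to 0.1. Without 1 library there were 17 to 100 calls, 8 to 64 higher, 9 to 36 lower, 17 to 98 separated, 4 to 13 near the miR-146a locus and 0 to 7 for the difference between diets; 17 calls came without WT HFD replicate 2, 100 without miR-146a-/- HFD replicate 1 and the 7 without miR-146a-/- HFD replicate 2. Of the 34 genes, 11 passed under every setting in which they were tested, which for Kirrel, Selenbp2, Pydc3 and 9930111J21Rik2 leaves out the minimum of 5 FPKM, and 0 changed sign. A minimum fold change of 1.5, which left 28 calls, is not counted among these settings, and Rapgef6, 1 of the 11, fails it. Of the named genes, 9 that did not pass changed sign under some setting: Lyz2 had a log2 fold change of 0.08 with quantile normalization, and with array quality weights C1qa had 0.06, C1qb 0.06, S100a4 -0.13, Ccr3 0.02, Igkc 0.18 and Klrd1 0.06, while voom gave Igkc 0.01. Without 1 library the ranges were -0.14 to 0.07 for C1qa, -0.11 to 0.08 for C1qb, -0.1 to 0.08 for S100a4, -0.37 to 0.04 for Ccr3, -0.2 to 0.25 for Igkc, -0.22 to 0.07 for Klrd1, -0.26 to 0.01 for Tek and -0.11 to 0.27 for Adipoq. The causes were not tested. Depth limits genes with few reads, such as Il4 with 26 reads over the miR-146a-/- libraries.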
